A study of Mus musculus with 4 samples.

Results

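Interleukin and chemokine receptors were compared between cultured mouse ovarian cancer cells before and after growth as omental tumors. The receptors are the genes named Il followed by a number and r or st, Ccr, Cxcr or Ackr followed by a number, and Lifr, Osmr, Ifnar1, Ifnar2, Ifngr1 and Ifngr2. They were chosen by symbol alone, with Il1rn and Il27ra left out. The array carried 66 such genes on 103 probes, of 22907 named genes and 56605 probes in all. ID8G cells are ID8 mouse ovarian cancer cells that express GFP. GO2 cells derive from them through repeated intraperitoneal injection into C57BL/6 J mice, each time with sorting of cells from the omental tumors that carried GFP and lacked CD45, the surface protein of leukocytes encoded by Ptprc. Both lines were grown in the same medium with 4% serum, and total RNA of each line was hybridised to 2 single-color arrays. GO2 is 1 selected line, and nothing in the labels says whether the 2 samples of a line came from separate cultures, so the p-values measure the spread between these samples, which may be technical.

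Interleukin receptors are mostly dimers or trimers of a chain that binds the cytokine and a chain that several cytokines share. The gp130 chain (Il6st) is shared by the IL-6 family and signals through JAK kinases and STAT factors, while the accessory chains of the IL-1 family recruit MyD88 and IRAK kinases. Chemokine receptors couple to inhibitory G proteins and steer cell movement, and the atypical chemokine receptors bind chemokines without that coupling and remove them from the surroundings. Leukocytes carry most of these receptors, whereas the shared gp130 chain and the receptors of type I interferons and interferon gamma are found on nearly all cells.

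Levels are log2 intensities relative to the 75th percentile of the same array, so that a level of 0 is a probe as bright as that percentile. Differences are GO2 minus ID8G on the same log2 scale, with the standard error and the Benjamini-Hochberg adjusted p of limma over all 28368 probes tested. A probe was tested when both arrays of 1 line, or of both lines, were well above background for it, and was called when its adjusted p was below 0.05 and the lines differed at least 2-fold. A gene counts as called when 1 of its probes was called, and its value is that of the brightest tested probe. Levels of different probes cannot be set against each other on these arrays.

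Of the 66 receptor genes, 24 stood well above background on all 4 arrays and 32 on none, and 30 were tested with 43 probes. Among the 30 tested genes, 4 were called higher in GO2 cells (13.3%), where 6.44% of all 13212 tested genes were, and these were Ackr4, Il18rap, Il1r1 and Il1rap. Ackr4 and Il18rap passed the filter on dim probes only through the GO2 arrays, and Ccr8 and Cxcr6 only through the ID8G arrays, so that the filter fixed the direction of these 4 genes and their part in any count is no result. With signal required on all 4 arrays, 2 genes were called higher, Il1r1 and Il1rap. The genes Ccr7 and Lifr were called lower, which is 6.67% of the 30 against 4.33% of all tested genes. Of the 43 tested receptor probes 4 were called higher and 2 lower, where 4.5% and 3.34% of all tested probes were. By adjusted p alone, with no minimum difference, 11 receptor genes were higher (36.7%, against 22.6% of all tested genes), 7 were lower (23.3%, against 22.3%) and 12 passed in neither direction. Without ID8G replicate 2, Ccr8, Cxcr5 and Il1rl1 were called lower as well. Each passed the filter only through the 1 ID8G array left, so that the filter fixed its direction and its part in a count is no result. The median difference of the tested receptor genes was -0.0011, and that of all tested genes was -0.00038. Of the 11 genes with several tested probes, 9 had the same result by adjusted p on every probe, and the other two were Il17rd and Il22ra1. In RNA of a whole culture, fewer cells that carry a receptor and less of its RNA per cell cannot be told apart.

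**Figure D1:**
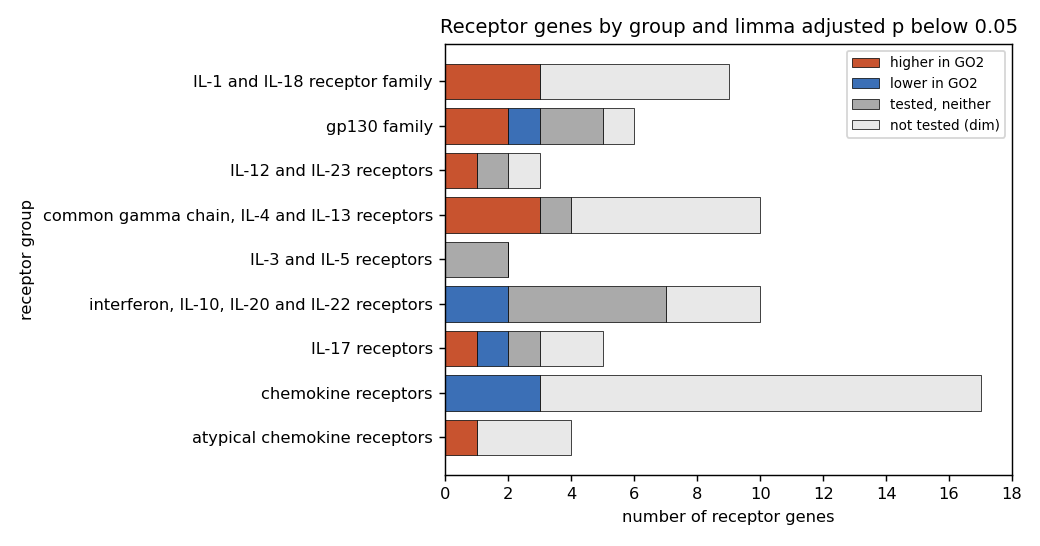
Number of receptor genes in each of 9 groups (horizontal axis, genes), colored by whether the gene was higher or lower in GO2 cells at a limma adjusted p below 0.05, tested without passing, or too dim to test. The filter on dim probes fixed the direction of Il18rap and Ackr4 among the higher genes and of Ccr8 and Cxcr6 among the lower ones, and 14 of 17 chemokine receptor genes were not tested.

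**Figure D2:**
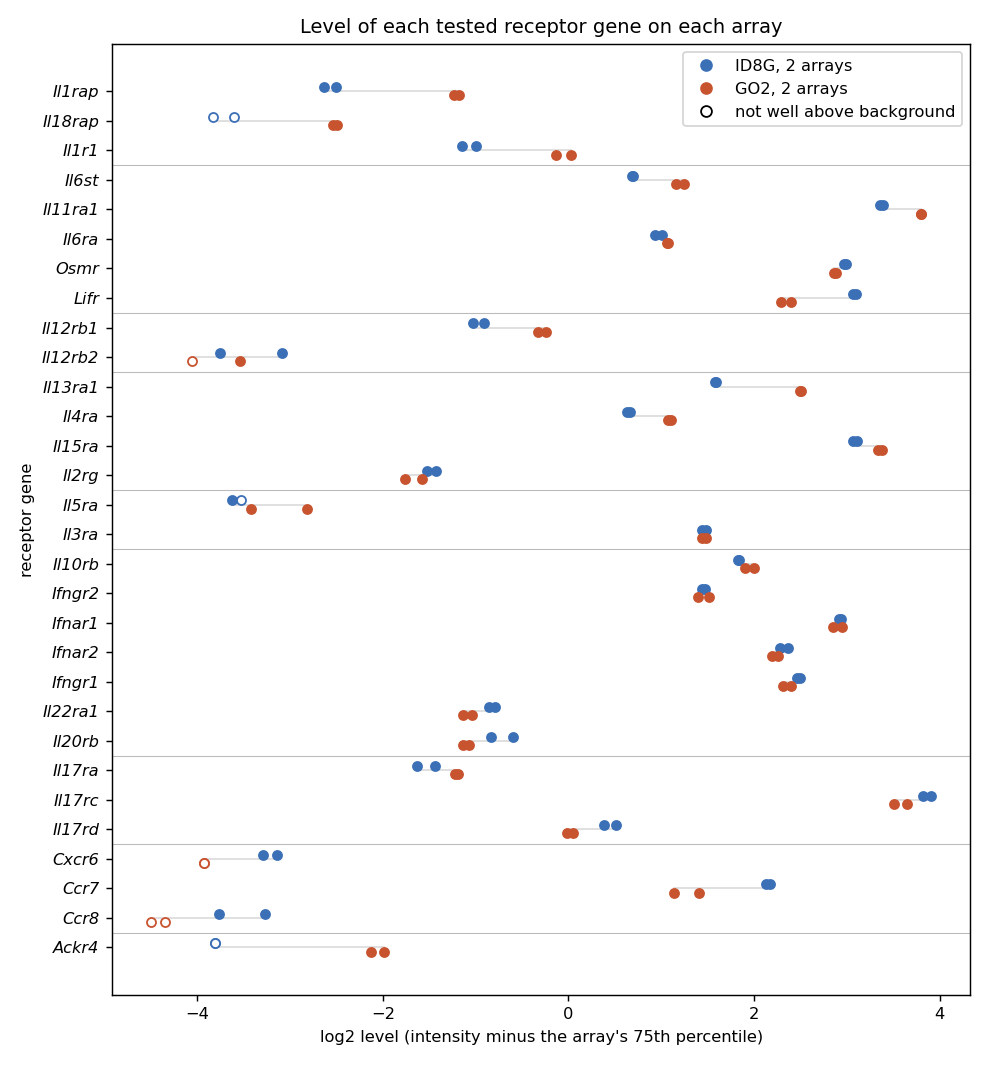
Level of each of the 30 tested receptor genes on each array (horizontal axis, log2 intensity relative to the array's 75th percentile), with 2 ID8G arrays in blue and 2 GO2 arrays in orange. Open circles mark arrays on which the probe was not well above background, and lines separate the groups. The arrays of the 2 lines lie apart for Il1rap, Il18rap, Il1r1, Lifr, Ccr7 and Ackr4, and side by side for the interferon receptors.

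The receptors of IL-1 and IL-18 had 3 tested genes among 9. Il1r1 and Il1rap, well above background in both lines, were called higher in GO2 cells, and Il18rap, called higher as well, was tested through its GO2 arrays alone. Il1rap encodes the accessory chain that the receptors for IL-1, IL-33 and IL-36 share. Its level was -2.63 and -2.50 in ID8G cells against -1.17 and -1.24 in GO2 cells. The GO2 level was higher by 1.36 (SE 0.07, adjusted p = 0.000859), a 2.57-fold difference, and neither line's arrays reached the range of the other. The other Il1rap probes were too dim to be tested. Among them, a probe well above background on 1 array of each line was lower on average in GO2 cells. It read -3.62 and -2.82 in ID8G cells against -3.88 and -3.52 in GO2 cells. Il1r1 encodes the signaling receptor of IL-1, and its level was -0.998 and -1.15 in ID8G cells against 0.03 and -0.13 in GO2 cells. This difference of 1.02 (SE 0.09, adjusted p = 0.00355) exceeded the spread between arrays, but it lay close to the 2-fold limit and fell to 0.94 without GO2 replicate 1 and to 0.95 without ID8G replicate 2, where the call was lost. On the scaled log2 values, the 7 spike-in probes read 0.15 to 0.28 higher in GO2 than in ID8G samples. With the arrays scaled to these probes, which lowers the median of all tested probes from -0.02 to -0.23, the Il1r1 difference was 0.81 and was not called, nor was it with median centering (0.99) or with normexp background correction (0.74).

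Il18rap encodes the accessory chain that the IL-18 receptor needs for signaling. Its level was -3.60 and -3.83 on the ID8G arrays, not well above background on either, and -2.49 and -2.53 on the GO2 arrays. Il18rap passed the filter on dim probes only through the GO2 arrays, so that the filter fixed its direction. It was at least 2.24-fold higher in GO2 cells (limma difference 1.21, SE 0.10, adjusted p = 0.00257), though the difference was 0.61 with normexp background correction and 0.999 with spike-in scaling, and was then not called. The chain that binds IL-18, Il18r1, was well above background on no array, as were the decoy receptor Il1r2, the IL-36 receptor Il1rl2, and Il1rapl1 and Il1rapl2. By 1 probe the IL-33 receptor Il1rl1 was at -2.09 on the first ID8G array, where it was well above background. That probe read -6.13, -5.23 and -5.47 on the second ID8G array and the GO2 arrays. Its other probes, well above background on no array, read higher on the GO2 arrays. A second probe was at -5.82 and -6.11 in ID8G cells against -4.58 and -3.97 in GO2 cells. The third was at -5.67 and -5.96 in ID8G cells against -5.09 and -4.73 in GO2 cells.

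In the RefSeq annotation Il1r1 and Il18rap lie in 1 run of receptor genes on mouse chromosome 1, in the order Il1r2, Il1r1, Il1rl2, Il1rl1, Il18r1 and Il18rap. Of these 6 genes only Il1r1 and Il18rap were tested. The nearest tested gene before the run, Map4k4, a protein kinase, had a difference of 0.90, and the nearest tested gene after it, Mfsd9, one of -0.19.

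The sequences upstream of the called genes are shown because the IL-1 family chains were higher in GO2 cells and Lifr was lower. Each line holds the 250 bases before an annotated start site in RefSeq (GRCm38.p6), read 5′ to 3′ on the strand of the gene, and capitals mark CG dinucleotides. Windows were found for 5 of the 6 called genes, with a pair of start sites for Il1r1 and for Lifr, and Ccr7 is named only.
Il1r1, first start site, chr1:40224830-40225079, plus strand: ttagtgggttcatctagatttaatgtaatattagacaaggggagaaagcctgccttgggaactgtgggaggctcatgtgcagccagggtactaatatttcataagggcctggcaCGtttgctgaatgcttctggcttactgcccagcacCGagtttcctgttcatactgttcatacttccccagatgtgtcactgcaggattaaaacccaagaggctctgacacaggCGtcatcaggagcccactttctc
Il1r1, second start site, chr1:40266336-40266585, plus strand: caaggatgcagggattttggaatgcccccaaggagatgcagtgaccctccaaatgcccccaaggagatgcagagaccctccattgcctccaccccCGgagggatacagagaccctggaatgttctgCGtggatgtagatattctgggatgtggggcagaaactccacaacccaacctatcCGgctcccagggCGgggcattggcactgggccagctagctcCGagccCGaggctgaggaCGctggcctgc
Il18rap, chr1:40515112-40515361, plus strand: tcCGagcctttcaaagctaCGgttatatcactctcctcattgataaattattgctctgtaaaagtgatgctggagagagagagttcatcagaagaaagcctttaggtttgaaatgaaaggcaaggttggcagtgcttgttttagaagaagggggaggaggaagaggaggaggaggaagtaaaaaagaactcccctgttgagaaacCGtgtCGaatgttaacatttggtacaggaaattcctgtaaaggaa
Il1rap, chr16:26581455-26581704, plus strand: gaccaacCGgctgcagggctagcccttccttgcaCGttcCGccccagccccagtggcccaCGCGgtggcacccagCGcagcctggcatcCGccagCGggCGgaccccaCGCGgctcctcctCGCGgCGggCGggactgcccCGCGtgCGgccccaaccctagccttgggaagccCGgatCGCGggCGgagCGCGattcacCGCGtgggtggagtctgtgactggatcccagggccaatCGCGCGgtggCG
Ackr4, chr9:104126644-104126893, minus strand: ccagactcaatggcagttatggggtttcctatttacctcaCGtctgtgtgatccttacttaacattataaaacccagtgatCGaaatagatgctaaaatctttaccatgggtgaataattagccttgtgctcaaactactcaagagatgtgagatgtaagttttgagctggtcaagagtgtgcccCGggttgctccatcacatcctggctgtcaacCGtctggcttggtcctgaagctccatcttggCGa
Lifr, first start site, chr15:7129322-7129571, plus strand: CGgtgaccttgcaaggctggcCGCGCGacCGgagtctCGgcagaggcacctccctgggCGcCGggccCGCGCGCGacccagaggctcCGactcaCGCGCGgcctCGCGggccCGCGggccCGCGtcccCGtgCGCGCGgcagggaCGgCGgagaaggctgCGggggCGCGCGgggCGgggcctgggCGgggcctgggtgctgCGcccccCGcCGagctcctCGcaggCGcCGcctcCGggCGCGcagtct
Lifr, second start site, chr15:7140292-7140541, plus strand: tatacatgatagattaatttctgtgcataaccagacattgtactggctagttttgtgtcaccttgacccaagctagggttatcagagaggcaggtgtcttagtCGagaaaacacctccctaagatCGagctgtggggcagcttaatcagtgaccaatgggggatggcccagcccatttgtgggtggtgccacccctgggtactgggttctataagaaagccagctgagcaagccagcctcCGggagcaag

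The windows of Il1rap and of the first Lifr start site held 30 and 43 CG dinucleotides, and the others held between 3 and 7. Over the receptors, the median number of CG dinucleotides in the window (the richest window of each gene) was 10.5 for tested genes, with a window for 26 of 30, and 3 for genes that were not tested, with a window for 30 of 36. Over all named genes it was 16 for tested and 3 for not tested genes, so that tested and not tested genes differed in the same direction across the array. The windows were searched on both strands for the AP-1 letters TGANTCA, held by 6.75% of all 32851 windows, and the STAT letters TTCNNNGAA, held by 7.02%. Of the 64 windows of receptor genes, 12.5% held the AP-1 letters and 12.5% the STAT letters. None of the 7 windows shown held either of them, and with so few windows no lack is read from that. For NF-kB the letters GGG, any 5 bases and CC occurred in 45.8% of all windows and in 5 of the 7, those of Ackr4, Il1rap, both Lifr start sites and the second Il1r1 start site. The stricter letters GGGA, any 2 bases and TTCC, chosen after that result was seen, occurred in 1.21% of all windows and in none of the 7. Of the 64 receptor windows, 48.4% held the looser letters and 4.69% the stricter ones. The CG count was likewise added after the windows had been seen.

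The gp130 family had 5 tested genes among 6, with 2 higher and 1 lower in GO2 cells by adjusted p. Lifr, which binds LIF and pairs with gp130, was the lower gene. On its brightest probe the level was 3.07 and 3.10 in ID8G cells against 2.29 and 2.40 in GO2 cells, a difference of -0.74 (SE 0.06, adjusted p = 0.00315). A second Lifr probe read 1.59 and 1.62 in ID8G cells against 0.19 and 0.20 in GO2 cells. By that probe Lifr was called, with a difference of -1.41 (SE 0.05, adjusted p = 0.000428), and by the third the difference was -0.91 (adjusted p = 0.00191). All 3 probes therefore put both GO2 arrays below both ID8G arrays, and they differed in size.

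Il6st, the gp130 chain itself, rose from 0.69 and 0.68 on the ID8G arrays to 1.15 and 1.25 on the GO2 arrays (difference 0.51, SE 0.06, adjusted p = 0.0068), and its second probe differed by 0.50. Il11ra1, which binds IL-11 and signals through gp130, read 3.36 and 3.39 in ID8G cells against 3.80 and 3.79 in GO2 cells, and it was higher by 0.43 (SE 0.05, adjusted p = 0.00735). Both were under the 2-fold limit. The IL-6 receptor Il6ra differed by 0.10 (95% interval -0.06 to 0.25) and the oncostatin M receptor Osmr by -0.10 (95% interval -0.24 to 0.03), and neither passed the test. Il31ra, the receptor of IL-31, was well above background on no array. The shared chain and Lifr, which form the LIF receptor together, moved in opposite directions, although with spike-in scaling Il6st no longer passed. Il11ra1 did not pass without GO2 replicate 1 or without ID8G replicate 1.

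Among the receptors of the common gamma chain and of IL-4 and IL-13, 4 of 10 genes were tested and 3 were higher by adjusted p. Il13ra1, which forms the receptor of IL-13 together with Il4ra, had the largest difference of the 3. Its level was 1.59 and 1.58 in ID8G cells against 2.51 and 2.50 in GO2 cells, a difference of 0.92 (SE 0.05, adjusted p = 0.00101). Il4ra read 0.66 and 0.63 in ID8G cells against 1.08 and 1.11 in GO2 cells, and was higher by 0.45 (SE 0.05, adjusted p = 0.00667). Its second probe, not well above background on either ID8G array, was at least 1.21-fold higher in GO2 cells. Both chains of this receptor were higher in GO2 cells, by less than 2-fold.

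Il15ra, which presents IL-15, read 3.07 and 3.11 in ID8G cells against 3.34 and 3.38 in GO2 cells (difference 0.27, SE 0.05, adjusted p = 0.0256), and it did not pass when any 1 of the 4 arrays was left out. The common gamma chain Il2rg did not pass, with a difference of -0.19 (95% interval -0.43 to 0.04). Its partners Il2ra, Il2rb, Il7r, Il9r and Il21r were well above background on no array, and the IL-13 decoy receptor Il13ra2 was so on 1 ID8G array only. Il12rb1, shared by the receptors of IL-12 and IL-23, read -1.03 and -0.91 in ID8G cells against -0.33 and -0.24 in GO2 cells, and was higher by 0.68 (SE 0.07, adjusted p = 0.00523). Its IL-12 partner Il12rb2 was near the background, with a difference of -0.38 (95% interval -1.19 to 0.44), and its IL-23 partner Il23r was well above background on no array. The IL-3 receptor chain Il3ra differed by 0.00 (95% interval -0.14 to 0.15), while the interval for the IL-5 receptor Il5ra was wide, from -0.14 to 1.06.

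**Figure D3:**
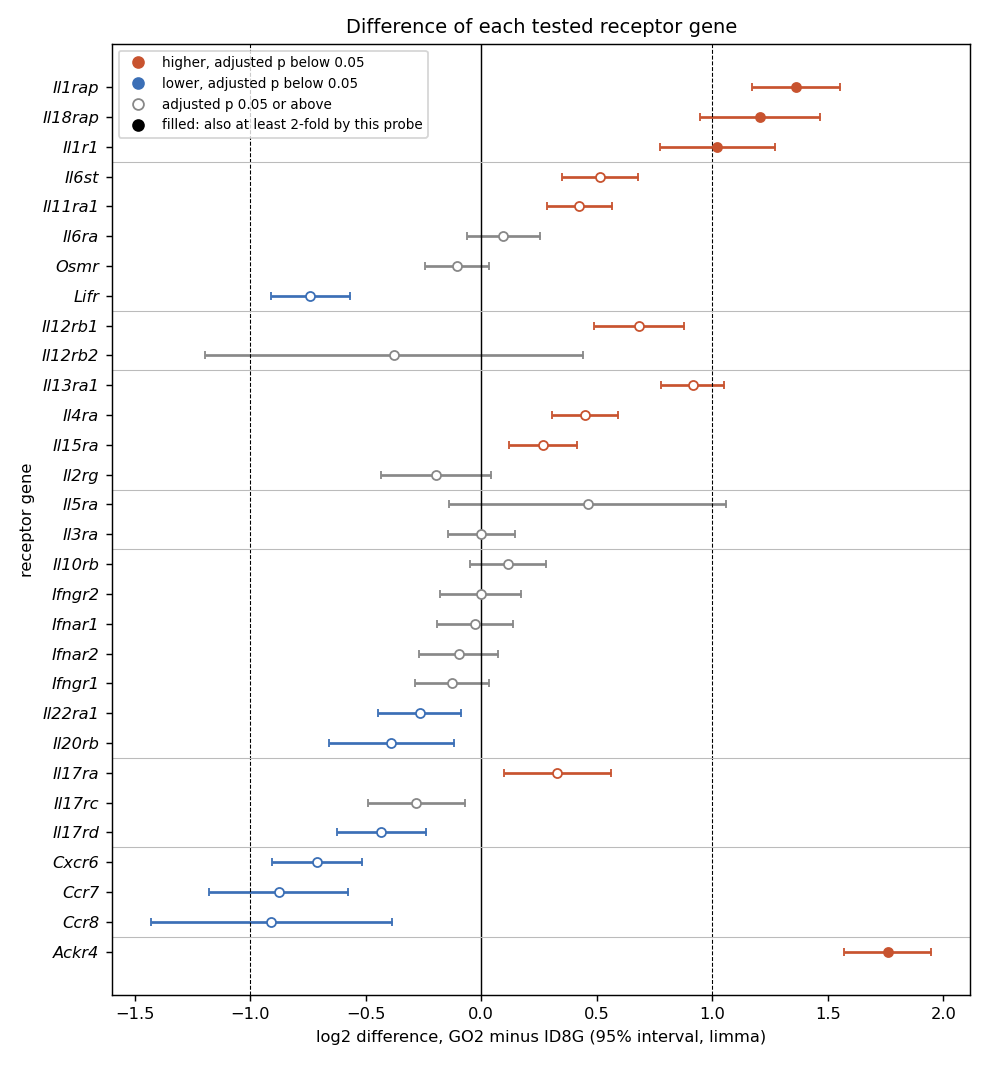
Difference of each of the 30 tested receptor genes (horizontal axis, GO2 minus ID8G, log2), by the brightest tested probe, with the unadjusted 95% interval of limma and dashed lines at 2-fold. Filled circles mark genes called by that probe. Ackr4, Il18rap, Il1r1 and Il1rap lie beyond the upper line, and the 5 tested interferon and IL-10 receptor chains lie near 0. Lifr and Ccr7 were called by a second probe that is not drawn, and for Ackr4, Il18rap, Ccr8 and Cxcr6 only a bound can be given because 1 line was not well above background.

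The receptors of interferons and of the IL-10, IL-20 and IL-22 cytokines had 7 tested genes among 10, and none was called by limma. At an unadjusted p below 0.05 limma had 0 higher and 2 lower. The methods' t-test, run probe by probe, called no receptor gene at all, not even Lifr or Il1rap. Its lack of a call here therefore tells nothing. The type I interferon receptor chains Ifnar1 and Ifnar2 differed by -0.03 (95% interval -0.19 to 0.14) and by -0.10 (95% interval -0.27 to 0.07). For Ifnar1 the level was 2.92 and 2.94 in ID8G cells against 2.85 and 2.95 in GO2 cells, so that the lines overlapped. The interferon gamma receptor chains Ifngr1 and Ifngr2 differed by -0.13 (95% interval -0.29 to 0.03) and by -0.003 (95% interval -0.18 to 0.17), and the shared chain Il10rb by 0.12 (95% interval -0.05 to 0.28). Il20rb, a chain of the IL-20 and IL-24 receptors, was lower by adjusted p with a difference of -0.39 (SE 0.10, adjusted p = 0.0459). Il22ra1, which pairs with Il10rb for IL-22, differed by -0.27 (SE 0.07, adjusted p = 0.043), and its second probe, at -0.33, did not pass (adjusted p = 0.111). The IL-10 receptor chain Il10ra, Il20ra and the soluble Il22ra2 were well above background on no array. Il22ra1 did not pass when any 1 of the 4 arrays was left out, and Il20rb passed only where the array left out was ID8G replicate 1.

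The IL-17 receptors had 3 tested genes among 5, with 1 higher and 1 lower by limma's adjusted p. At an unadjusted p below 0.05 limma had 1 higher and 2 lower, and it called none. The methods' t-test, which called no receptor gene at all, tells nothing here. Il17ra, the chain that all IL-17 receptors share, read -1.44 and -1.63 in ID8G cells against -1.23 and -1.19 in GO2 cells, a difference of 0.33 (SE 0.08) that barely passed (adjusted p = 0.0478) and did not pass when any 1 array was left out. Il17rc, its partner for IL-17A and IL-17F, had a difference of -0.28 (95% interval -0.49 to -0.07) that did not pass (adjusted p = 0.0542). Il17rd, also known as an inhibitor of FGF signaling, differed by -0.43 (SE 0.07, adjusted p = 0.0155) on its brightest probe and by -0.01 on another. The probes of Il17rd disagreed, and the first did not pass without ID8G replicate 2, GO2 replicate 1 or GO2 replicate 2. The receptors Il17rb and Il17re were well above background on no array.

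Most chemokine receptors were not well above background in either line. Of 17 genes, 12 were well above background on no array, among them Cxcr4, which binds CXCL12, Cxcr2, which binds CXCL1, and Ccr2, which binds CCL2. The tested genes were Ccr7, Ccr8 and Cxcr6, and of these only Ccr7 was well above background in both lines. Ccr7, the receptor that guides dendritic cells and T cells to lymph nodes, had a pair of probes. The brighter one read 2.13 and 2.17 in ID8G cells against 1.13 and 1.41 in GO2 cells, a difference of -0.88 (SE 0.11, adjusted p = 0.00829). The other read -0.26 on both ID8G arrays against -1.29 and -1.38 in GO2 cells, and called the gene with a difference of -1.07 (SE 0.06, adjusted p = 0.00102). With normexp correction this probe differed by -0.88 and was not called. Both probes placed the GO2 arrays below the ID8G arrays by close to 2-fold.

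Ccr8, a receptor of CCL1 found on regulatory T cells, and Cxcr6, the receptor of CXCL16, were well above background on the ID8G arrays only. The filter on dim probes thereby fixed the direction of both. Ccr8 was at -3.26 and -3.77 in ID8G cells against -4.50 and -4.35 in GO2 cells, at least 1.23-fold higher in ID8G cells (limma difference -0.91, adjusted p = 0.029). With values floored at the lowest signal well above background, on which the bound rests, the Ccr8 difference was -0.29 and did not pass (adjusted p = 0.265). Cxcr6 was at -3.29 and -3.14 on the ID8G arrays and at -3.93 on both GO2 arrays, at least 1.51-fold higher in ID8G cells (limma difference -0.71, adjusted p = 0.00471), and with normexp correction it did not pass (difference -0.22, adjusted p = 0.111). Neither reached the 2-fold limit, both lay near the background, and Ccr8 did not pass without GO2 replicate 1 or without GO2 replicate 2. A single array was well above background for Cxcr5, with a level of -2.15 on the first ID8G array against -6.15, -6.11 and -6.18 on the rest, and for Ccr3, with -3.02 on the second GO2 array against -5.73, -5.80 and -5.90 on the rest.

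Of the atypical chemokine receptors, Ackr4 was the 1 tested gene among 4. Ackr4 takes up CCL19, CCL21 and CCL25. It was at -3.81 on both ID8G arrays, not well above background, and at -1.98 and -2.12 on the GO2 arrays. It was at least 3.07-fold higher in GO2 cells (limma difference 1.76, SE 0.07, adjusted p = 0.000505). Ackr4 passed the filter on dim probes only through the GO2 arrays, so that the filter fixed its direction and the adjusted p is no test of it. Ackr1, Ackr2 and the CXCL12 scavenger Ackr3 were well above background on no array.

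The ligands of these receptors were counted from a list of 75 genes, of which 71 were on the array and 23 were tested. Of these, 6 were called higher and 6 lower in GO2 cells, where 6.44% and 4.33% of all tested genes were. This list and those below share their arrays with the receptors. The higher ligands were the neutrophil chemoattractant Cxcl1 (difference 6.05), the stromal chemokine Cxcl12 (4.05), Il18 (3.97), Il33 (3.74), Cxcl10 (1.27) and Ccl5 (1.14). Il18 was at -3.42 and -3.22 in ID8G cells against 0.74 and 0.57 in GO2 cells, and Il33 was at -0.28 and -0.41 in ID8G cells against 3.41 and 3.39 in GO2 cells. For IL-18, the ligand was higher in GO2 cells while Il18r1 was well above background on no array. The accessory chain Il18rap passed the filter on dim probes only through the GO2 arrays, which fixed its direction, so nothing is read from its being higher as well. For IL-33, the ligand and the accessory chain Il1rap were higher while Il1rl1 was well above background on 1 of 4 arrays.

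The lower ligands were the monocyte chemoattractant Ccl2 (difference -1.73), the IL-1 antagonist Il1rn (-1.52), Cxcl16 (-1.45), Ccl20, Ccl17 and Ccl8. Il1rn, which competes with IL-1 for Il1r1, was at 3.39 and 3.43 in ID8G cells against 1.90 and 1.88 in GO2 cells, with an adjusted p of 0.000387. The antagonist was lower where both chains of the IL-1 receptor were higher, while Il1a and Il1b were well above background on no array. Ccl20, Ccl17 and Ccl8 were not well above background on the GO2 arrays. They were at least 5.40-fold, 1.44-fold and 1.65-fold higher in ID8G cells, with 1 GO2 array left out for Ccl8 as an outlier spot. They passed the filter on dim probes only through the ID8G arrays, so that it fixed their direction and their part in the count is no result. Cxcr6, the receptor of Cxcl16, was not called. By contrast the receptors of Cxcl12, Cxcl1, Ccl2 and Ccl20, which are Cxcr4, Cxcr2, Ccr2 and Ccr6, were well above background on no array.

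**Figure D4:**
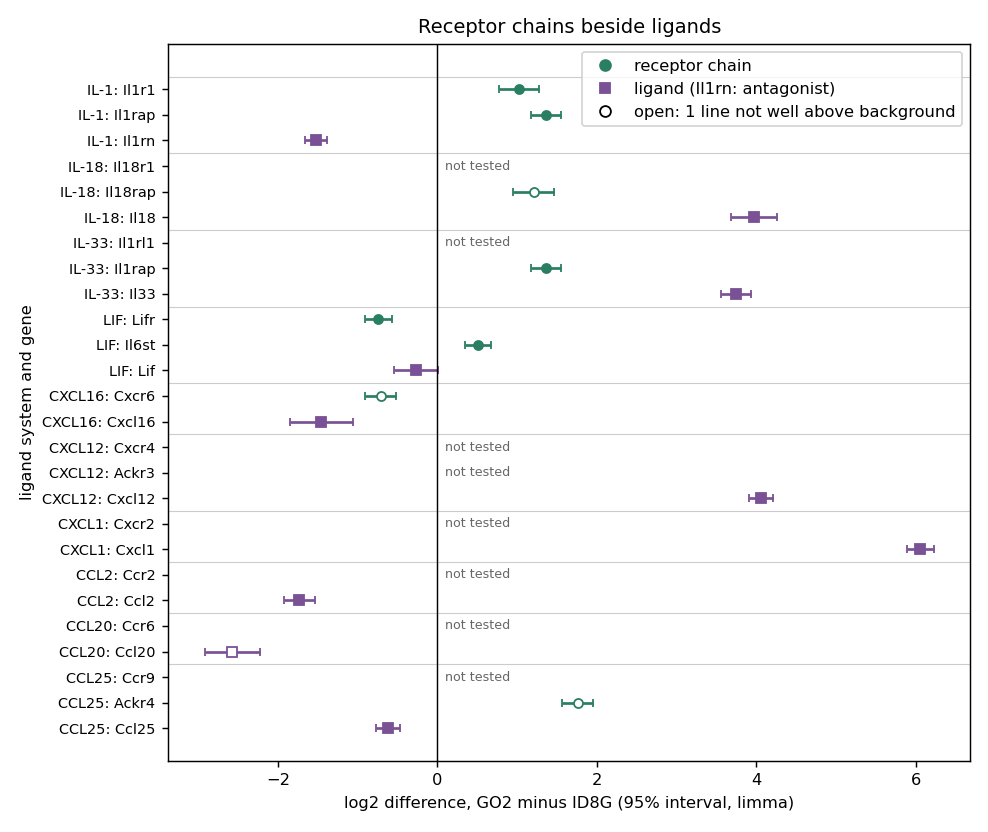
Differences (horizontal axis, GO2 minus ID8G, log2, with the unadjusted 95% interval of limma) of receptor chains in green and of ligands in purple, set out by ligand system. The pairs were picked with their values known. Open symbols mark genes with 1 line not well above background, and receptor chains too dim to test have no symbol. Cxcl1 and Cxcl12 lie at 6.05 and 4.05 without a tested receptor, and Il18 and Il33 lie beside the accessory chains Il18rap and Il1rap. The filter on dim probes fixed the direction of Il18rap, Ackr4, Cxcr6 and Ccl20.

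Genes downstream of the receptors were read against the same shares of all tested genes, 6.44% called higher and 4.33% called lower. By adjusted p alone these shares were 22.6% higher and 22.3% lower. Among 27 JAK-STAT signal transducers and inhibitors, 26 were tested and 1 was called, which was Ptpn6, the phosphatase SHP-1 known from hematopoietic cells. It was lower on 2 of 3 tested probes, with differences of -2.19 (adjusted p = 0.00279) and -2.29 (adjusted p = 0.00192), and differed by -0.17 on the third, which did not pass. By adjusted p alone 7 genes of this list were higher and 6 were lower, and the median difference was 0.08. Of the adaptors of the IL-1 and IL-17 receptors, 14 of 16 were tested and none was called by limma. By limma's adjusted p alone 3 were higher and 3 lower, and by its unadjusted p 4 and 5. The methods' t-test called no gene of the ligand, signaling and related-receptor lists, so it tells nothing here. Myd88, the adaptor of the IL-1 receptor family, was among the 3 higher with a difference of 0.26 (adjusted p = 0.0296).

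Of 24 transducers of chemokine receptors, 16 were tested and 4 were called higher, with none called lower. By adjusted p alone 5 were higher and 5 lower, where 22.6% and 22.3% of all tested genes were. The lower ones were Arrb1, Arrb2, Elmo1, Gng12 and Rgs4. The called genes were Grk5 (difference 1.64), a kinase that desensitizes G protein-coupled receptors, Rgs2 (1.41) and Rgs3 (1.17), which shorten G protein signals, and Gnai1 (1.21), an inhibitory G protein subunit. Of 21 related receptors outside the naming rule, 14 were tested and 2 were called, both lower, namely Gpr182, a chemokine-binding receptor, with a difference of -1.61 and the interferon lambda receptor Ifnlr1 with -1.15. Ifnlr1 pairs with Il10rb, which did not pass.

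Since leukocytes carry many of the receptors, markers of other cells were read on the same arrays, although the sort of GO2 cells took only cells without CD45. Of 10 general leukocyte markers 1 was tested, Itgb2, with a difference of 0.0015, and none was called, with 0 at an unadjusted limma p below 0.05. Ptprc, Cd53, Laptm5, Lcp1, Coro1a, Vav1 and Cd52 were well above background on no array, and Ikzf1 and Rac2 on 1 ID8G array each. The summed linear level of the 10 markers, from 0.468 to 0.488 on the ID8G arrays and from 0.355 to 0.371 on the GO2 arrays, takes in markers not well above background, and no difference is read from it. Of 14 macrophage markers 6 were tested, and 1 was called, Mpeg1, which was lower in GO2 cells with a difference of -1.04. By adjusted p alone 3 were lower and 0 higher, Mpeg1, Cd14 (difference -0.69) and C1qb, which was well above background on the ID8G arrays only (1 higher and 3 lower at an unadjusted limma p below 0.05). By the brightest probe of each, Itgam, with levels from 4.13 to 4.39, Csf1r (difference 0.22) and Cd68 (0.19) were well above background on every array. None of the 3 passed. A second Itgam probe read -3.63 and -3.93 in ID8G cells against -3.56 and -3.32 in GO2 cells. It was well above background on 1 GO2 array only, and a second Cd68 probe was so on 1 array of each line. Adgre1, Lyz2, Tyrobp, Mrc1 and C1qa were well above background on no array, and the summed level ran from 23.5 to 26.2 on the ID8G arrays and was 22.3 on both GO2 arrays. Of 11 T and NK cell markers on the array 4 were tested and none was called (2 higher at an unadjusted limma p below 0.05). Of 7 B cell markers 3 were tested and Blnk was called lower. Of 8 granulocyte and mast cell markers on the array 2 were tested and Kit was called lower. Kit passed the filter on dim probes only through the ID8G arrays, so that the filter fixed its direction. Over all tested genes, 6.44% were called higher and 4.33% lower, and by adjusted p alone 22.6% were higher and 22.3% lower.

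Fibroblast markers differed between the lines. Of 10 markers 5 were tested and 4 were called higher in GO2 cells, where 6.44% of all tested genes were. The called markers were Col1a2 (difference 7.49), Col1a1 (4.69), Pdgfra (3.70) and Pdgfrb (at least 2.42-fold higher). Pdgfrb passed the filter on dim probes only through the GO2 arrays, so that the filter fixed its direction. The fifth, Dcn, was lower by adjusted p, at 6.07 and 6.01 in ID8G cells against 5.41 and 5.42 in GO2 cells (difference -0.63, adjusted p = 0.00309). The summed level of the list ran from 67.5 to 70.2 on the ID8G arrays and from 127 to 130 on the GO2 arrays, while Lum, Dpt, Fap, Thy1 and Pi16 were well above background on no array. The part of these genes in the receptor differences was not tested. Of 9 endothelial markers 2 were tested and none was called (1 higher at an unadjusted limma p below 0.05). Of 8 adipocyte markers 2 were tested and Fabp4 was called lower. Fabp4 passed the filter on dim probes only through the ID8G arrays, so that the filter fixed its direction.

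The labelled cells were checked against 10 mesothelial and ovarian surface markers on the array. Krt8, Krt18, Krt19, Wt1, Msln, Upk3b, Lrrn4 and Cdh1 stood well above background on all 4 arrays, and Epcam and Krt7 on none. Their summed linear level, in which bright probes weigh most, was lower in GO2 cells, from 374 to 377 against 656 to 663. Of the 8 tested, Upk3b was called higher and Krt19 lower, where 6.44% and 4.33% of all tested genes were. By adjusted p alone 1 was higher and 4 were lower, where 22.6% and 22.3% of all tested genes were. As a check of the labels, Serpinf1, which encodes PEDF, was called higher in GO2 cells by all 3 of its probes, at least 476-fold by the brightest. Between 27502 and 28841 probes were well above background on an array, Pearson's r over probes was 0.997 within each line and 0.967 to 0.968 between lines, and all 4 arrays were on 1 slide. The codes in the file names give each line its own first digit and may be positions on the slide, which the headers do not state. If they are, position on the slide and cell line cannot be told apart.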

How the data were processed

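RNA of ID8G and GO2 cells was measured on 4 Agilent SurePrint G3 Mouse GE arrays, 2 per cell line, with 1 color. The authors deposited the linear intensity of each spot from Feature Extraction 11.5.1.1, background-subtracted, without scaling across arrays. A table of log2 values, also from the authors, came from GeneSpring. A comparison with the scanner files showed these to be scaled to the 75th percentile of each array and centered on the median of each probe (99.97% of values within 0.05). Their column medians were 0.104 and -0.0478 for ID8G and 0.038 and -0.0486 for GO2 replicates 1 and 2. They served 1 alternative, and 0 of their columns were left unused.

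From the intensities, log2 values minus the 75th percentile over probes were computed, with outlier spots left out and the spots of a probe averaged. Cell line was the single term of the fit (limma 3.58.1, R 4.3.3). Where a line was well above background on neither array, the fold is a bound against the lowest signal well above background on each array, or the probe itself where higher. With 2 arrays against 2, an exact permutation test of 1 probe cannot go below p = 0.333. The number of arrays limits the precision. Symbols came from the RefSeq accession of 32989 probes (58.3%). The array was designed on mm9, and the upstream windows are from GRCm38.p6.

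The receptors, groups, lists and tests were chosen with earlier results of these data known. Named are the receptors called or well above background on all arrays, the called genes of each list (at most 8), up to 4 detected markers per marker list, and Serpinf1. Other genes named, undetected receptors, ligands and markers among them, were chosen after their values were seen. Alternatives covered background correction, scaling, the filter on dim probes, the test and its thresholds, the replicate number as a block, and each replicate left out. In simulated data on 28344 probes for GO2 against ID8G, 95 of 100 probes changed by 1.5 and 100 of 100 changed by 3 (log2) were called with the correct sign. Calls were also made for 4 probes without a change. Figures were drawn with matplotlib 3.10.9.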

Additional observations from a re-analysis of the deposited data

How the results depend on the processing

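Over 19 alternatives the named receptor probes gave 600 values. The call was unchanged for 564 values, lost for 18 and gained for 18. Among called values 0 changed direction, whereas differences near 0 that were not called could change sign. Ifngr2, for example, differed by -0.003 in the main setting and by 0.041 with normexp. The receptor genes called were 4 higher and 2 lower. They numbered 1 and 1 with limma treat, which left Ackr4 and Lifr, 0 and 0 with the methods' t-test, 11 and 7 with no minimum difference, and 2 and 1 with normexp. The filter on dim probes had fixed the direction of Ackr4, so its call under limma treat is no result. The t-test, at an unadjusted p below 0.05 and 2-fold, gave 5 genes. With spike-in scaling 2 genes were higher, and so were 2 when signal was required on all 4 arrays, a filter that leaves out Ackr4 and Il18rap. With 1 value per gene 0 were lower, because Lifr and Ccr7 are called by a dimmer probe. Leaving out each array in turn lost Il1r1 without GO2 replicate 1 and without ID8G replicate 2. The genes added were Ccr3 and Il4ra, called higher, and Ccr8, Cxcr5 and Il1rl1, called lower. The probes that called them passed the filter on dim probes only through the line where they were higher, so that the filter fixed their direction. For Il4ra this was the second, dim probe, and the brighter one was well above background on all 4 arrays. By adjusted p alone, 11 higher and 7 lower became 0 and 0 with the t-test and 6 and 4 with no filter on dim probes, and 7 were higher with spike-in scaling. Leaving out each array gave 8 to 10 higher and 3 to 7 lower. Receptor probes called, 4 higher and 2 lower, became 1 and 1 with treat, 0 and 0 with the t-test, 13 and 10 with no minimum, 2 and 1 with normexp and 2 and 5 with spike-in scaling. They were 2 higher with signal on all 4 arrays, 0 lower with 1 value per gene, and 3 to 5 higher and 2 to 5 lower with each array left out. The median receptor difference of -0.0011 became -0.0312 with median centering, -0.0553 with no filter, -0.0177 with quantile normalization and -0.209 with spike-in scaling, and ran from -0.0208 to 0.0194 with each array left out.

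Over all probes, 1277 higher and 947 lower became 748 and 440 with treat, 0 and 3 with the t-test, 4835 and 5348 with no minimum, 818 and 517 with normexp and 666 and 606 with signal on all 4 arrays, and 1434 were lower with spike-in scaling. List genes called, 10 higher and 9 lower, became 5 higher with treat, 0 and 0 with the t-test, and 27 and 26 with no minimum. The cause of these changes was not tested beyond what each setting removes. The replicate numbers did not pair the arrays (correlation of same-numbered deviations 0.027), and with the replicate block the same 4 higher and 2 lower genes were called. By adjusted p alone, 10 genes were higher and 5 lower with the replicate block, where Il17ra (limma adjusted p = 0.082), Ccr8 (0.0652) and Il20rb (0.0844) no longer passed. A slide block could not be fitted with 1 slide. Signal over background sets the limit for the 36 receptor genes that were not tested.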
